A study of Mus musculus with 10 samples.

Results

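The genes described here are imprinted genes, which are transcribed mainly or only from the allele inherited from a given parent. They are 40 mouse genes listed by name, and each was read from the probe set that carries its symbol alone (where a gene had several, the brightest over all arrays was to be taken). Of the 40 genes, 33 were measured in this way, each by exactly 1 probe set, among 19938 genes with such a probe set. Mirg, Snrpn, Ube3a and Gnas were annotated only on probe sets that carry several symbols, so they have no value of their own. H19, Kcnq1ot1 and Zrsr1 were not analysed here.

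The study measured whole-brain RNA of male C57BL/6J offspring, an inbred laboratory strain, at postnatal day 70 on Affymetrix whole-transcript arrays. The mothers of the ethanol offspring drank 10% ethanol in water from gestational day 0 until the pups were 10 days old, and the mothers of the control offspring had water only. Experiment 1 had 2 ethanol arrays and 2 control arrays with RNA of 3 mice pooled on each. Experiment 2, on another group of mothers, had 3 ethanol arrays and 3 control arrays with RNA of 2 mice pooled on each. Each experiment used 12 mice. Pools held different mice, but whether litters were spread over several pools is not stated, and the p-values therefore reflect only how pools varied. The question the design asks is whether this early exposure left a difference in the adult brain.

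At an imprinted locus, a differentially methylated region that was marked in the egg or the sperm decides which parental copy is transcribed, and the mark is kept through development by DNA methyltransferases and by zinc finger proteins that bind the methylated copy. The loci are clusters in which a long non-coding RNA is often transcribed from the copy on which the neighbouring protein-coding genes are silent. Paternally expressed members such as Igf2, Dlk1, Plagl1 and Peg3 are known mainly as growth and metabolic regulators, maternally expressed members such as Cdkn1c, Phlda2 and Igf2r mainly as restrainers of growth, and several of both kinds stay highly transcribed in adult neurons. An array level sums both alleles, so it shows no loss or gain of imprinting by itself.

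No imprinted gene was shown to differ between ethanol and control brains beyond the spread between arrays. With limma and Benjamini-Hochberg adjustment over 21789 probe sets at 0.05, 0 of the 33 genes passed in experiment 1, in experiment 2, over both experiments together, or for the difference between the experiments. The same held for all probe sets, with 0% called in each of the comparisons. The smallest adjusted p among the 33 genes was 0.438 in experiment 1, 0.353 in experiment 2 and 0.316 over both. The largest fold among them was 1.21 in experiment 1, 1.27 in experiment 2 and 1.12 over both.

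At an unadjusted p under 0.05, 3 of the 33 genes were called in experiment 1 (Sgce, Plagl1 and Kcnk9, all lower in ethanol), where 8.95% of all probe sets were called, with 4.02% higher and 4.93% lower. In experiment 2, 4 were called, Meg3 and Rian higher and Igf2 and Grb10 lower, where 9.97% of all were called, with 3.78% higher and 6.19% lower. Over both experiments 4 were called, Meg3 higher and Sgce, Grb10 and Inpp5f lower, where 12.4% of all were called, with 4.72% higher and 7.68% lower. For the difference between the experiments 5 were called (Igf2, Rian, Plagl1, Kcnk9 and Airn), where 6.57% of all were called, with 3.24% in the direction of Igf2 and 3.33% in that of the other 4 genes. The counts within experiments and over both are near the background share, and 5 of 33 is above it for the difference between experiments. Counted once each, 8 genes were called within either experiment or over both. The share of all probe sets called in any of these comparisons was not counted. The 8 of 33 therefore cannot be set against the shares of single comparisons. In experiment 2 the count moved to 8 of 33 with each array centred on its median, where 10.7% of all were called.

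Directions were split evenly. In experiment 1, 15 of the 33 genes were higher and 18 lower in ethanol, with a median difference of -0.02 on the log2 scale. In experiment 2, 16 were higher and 17 lower, with a median of -0.01. Over both experiments the median was 0.00, beside -0.01 over all probe sets, and 16 of the 33 genes had the same sign in both experiments. The ethanol and control arrays did not overlap for 4 genes that were higher and 8 that were lower in experiment 1, where 15.1% and 19.2% of all probe sets were so. In experiment 2 they did not overlap for 6 genes that were higher (Commd1, Meg3, Mest, Peg3, Rian and Slc22a18) and 3 that were lower (Grb10, Igf2 and Inpp5f), where 7.62% and 11.6% of all were so.

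The parental origin of the active copy did not separate the genes in the same way in both experiments. Of 17 paternally expressed genes, 11 were higher in ethanol in experiment 1 (median difference 0.03) and 7 in experiment 2 (median -0.02). Of 13 maternally expressed genes, 4 were higher in experiment 1 (median -0.05) and 9 in experiment 2 (median 0.09). The other 3 genes, Grb10, Blcap and Inpp5f, whose active copy depends on the isoform or tissue, were lower in ethanol in both experiments. The active copy is the one usually assigned to each gene and was not measured in these brains. It need not hold in every cell type, and Igf2r, counted as maternal, is transcribed from both copies in neurons.

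**Figure D1:**
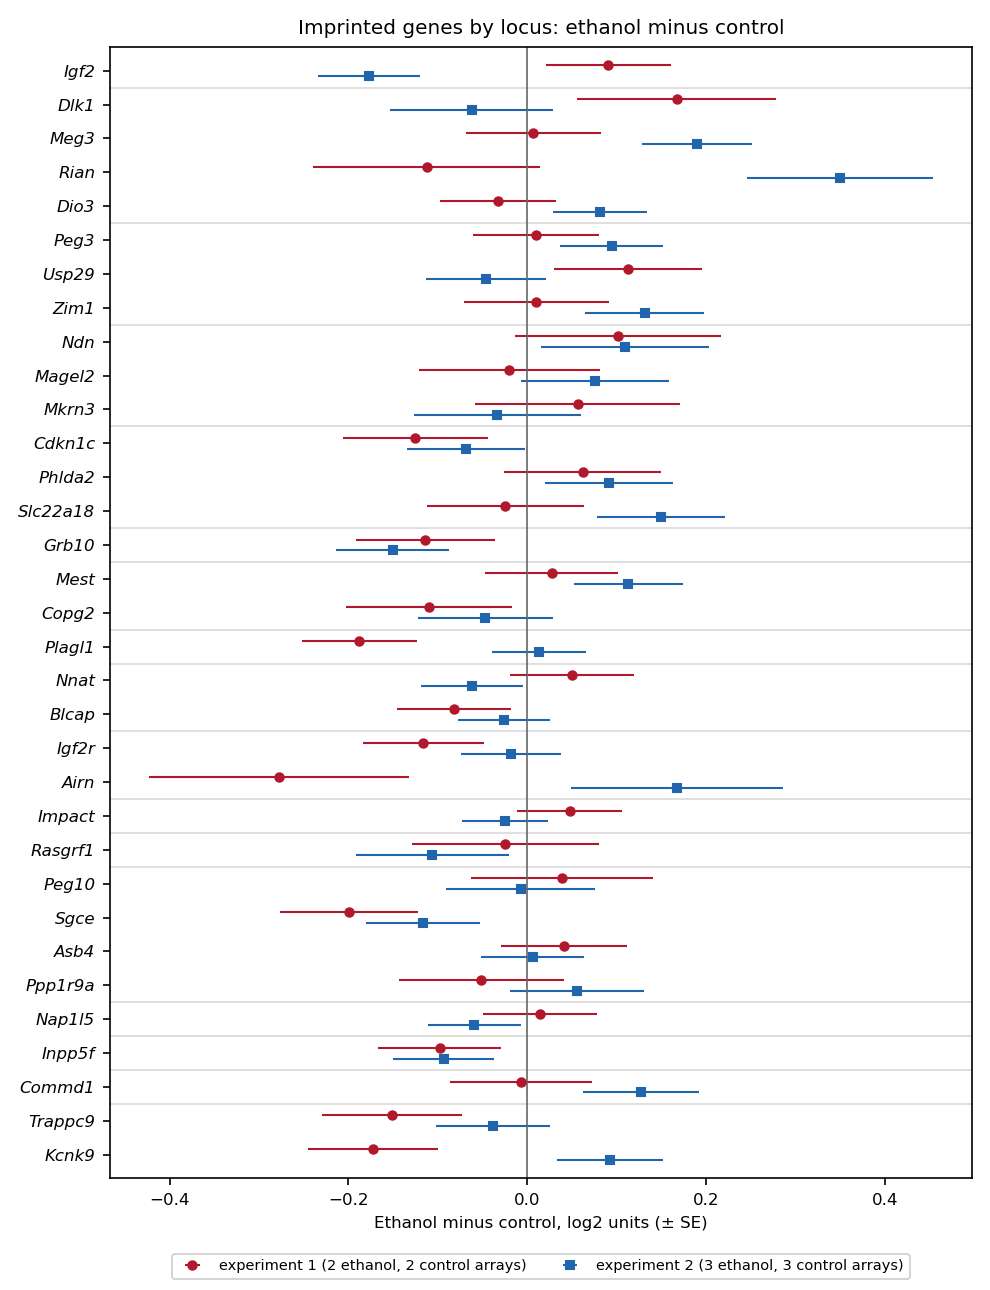
Difference between ethanol and control arrays (x axis, log2 units) for each of the 33 measured imprinted genes (y axis, grouped by locus with a line between loci), in experiment 1 (circles) and experiment 2 (squares), with bars of 1 SE from the limma fit. Most points lie within 0.2 of 0. Rian (0.35) is the farthest above 0 in experiment 2 and Airn (-0.28) the farthest below 0 in experiment 1, and each has the opposite sign in the other experiment.

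Some facts of the arrays bear on single genes. The median level of the 10 arrays ran from 6.99 to 7.05 log2 units, and the mean level of 9 neuronal markers from 12.35 to 12.46, so the tissue label was met by its defining markers. Dim probe sets tended to be higher and bright ones lower in ethanol: over both experiments, 4321 of 5447 probe sets in the dimmest 25% were higher and 4221 of 5448 in the brightest 25% were lower. In the step just below the brightest 25%, 4210 of 5447 probe sets were lower. Of the 33 imprinted genes, 3 were among the dimmest 25%, 6 and 8 in the steps between, and 16 among the brightest 25%, of which 8 were higher and 8 lower. Of the 8 in the step just below the brightest 25%, among them Grb10, Blcap and Inpp5f, 6 were lower over both experiments. A list of 12 genes typical of cerebellar cells was lower in all 12 genes in experiment 1, with a median of -0.33. The pituitary hormone genes Gh, Prl and Cga together averaged 10.7 on array 1 and 9.08 on array 2 of the ethanol group in experiment 1, and 11.9 on array 2 of that group in experiment 2, against 5.66 to 7.69 on all other arrays. Whole brain is a mixture, so fewer cells of a type and less RNA per cell cannot be told apart in any value given here.

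The Dlk1-Dio3 locus on chromosome 12 held the largest difference in experiment 2. There the paternal copy gives Dlk1, a membrane ligand related to the Notch ligands, and Dio3, a deiodinase that inactivates thyroid hormone. The maternal copy gives the long non-coding RNAs Meg3 and Rian and a long array of microRNA and snoRNA genes. The 250 bases before the first annotated start of Meg3 are printed here because Meg3, Rian and 39 of the 40 measured microRNA genes of the interval were higher in ethanol in experiment 2. The sequence is chr12:109540746-109540995 on the plus strand of GRCm38.p6, from RefSeq, with every CG in capitals:
Meg3: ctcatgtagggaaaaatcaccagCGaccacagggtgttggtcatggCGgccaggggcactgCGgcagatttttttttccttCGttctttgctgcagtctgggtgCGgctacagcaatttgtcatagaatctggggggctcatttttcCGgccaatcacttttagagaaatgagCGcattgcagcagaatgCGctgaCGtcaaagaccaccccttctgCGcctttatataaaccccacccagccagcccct

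That window holds 10 CG dinucleotides and 1 match to TGCCGC, the core of the motif that the imprint-keeping protein ZFP57 binds when methylated, searched on both strands. Promoter windows of this length were found for 27 of the 33 genes, 37 windows in all. They held a median of 10 CG, beside a median of 6 over 32851 windows of all genes. TGCCGC was found in 7 of the 37 windows (18.9%), beside 8.68% of all windows. Of those 7, 2 are overlapping windows of Mest with the same matches, and by gene it was found for 6 of 27 (22.2%), beside 9.84% of all genes with a window. TGCCGC itself holds a CG, and these shares were not matched for the number of CG in a window. A match is a description of the letters and was not tested as a binding site, and the methylation of these windows was not measured in these data.

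Meg3 is a nuclear long non-coding RNA that restrains growth. Its levels in experiment 2 were 11.93, 12.00 and 11.98 on the ethanol arrays, against 11.76, 11.69 and 11.88 on the control arrays. All ethanol arrays lay above all control arrays there. In experiment 1 the levels were 11.82 and 11.93 in ethanol and 11.91 and 11.83 in control, and the groups overlapped. The difference was 0.19 ± 0.06 (SE) in experiment 2 (1.14-fold, adjusted p = 0.381) and 0.01 ± 0.08 in experiment 1. Over both experiments it was 0.12 ± 0.05 (adjusted p = 0.398). There the unadjusted p was under 0.05 in 9 of 19 alternatives. It was not without array 2 of either group in experiment 1, nor without any single array of experiment 2 other than control array 3, with a value of 0.08 without control array 2. In experiment 2 alone it was under 0.05 in 16 of 16 alternatives. The difference between the experiments had adjusted p = 0.806, so the experiments were not shown to differ for Meg3.

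Rian, a long non-coding RNA that hosts snoRNAs, lies farther along the same strand. In experiment 2 its levels were 8.74, 9.02 and 8.72 on the ethanol arrays, against 8.39, 8.61 and 8.44 on the control arrays. The groups did not overlap, and ethanol array 2 was the highest. In experiment 1 the levels were 8.42 and 8.78 in ethanol and 8.67 and 8.75 in control, with the ethanol arrays on either side of the control arrays. The difference was 0.35 ± 0.10 in experiment 2 (1.27-fold, adjusted p = 0.353) and -0.11 ± 0.13 in experiment 1 (adjusted p = 0.83). The difference between the experiments, experiment 1 minus experiment 2, was -0.46 ± 0.16 (adjusted p = 0.696). Without ethanol array 1 of experiment 1 it was -0.28, and without control array 2 of that experiment -0.42, neither under the unadjusted threshold.

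**Figure D2:**
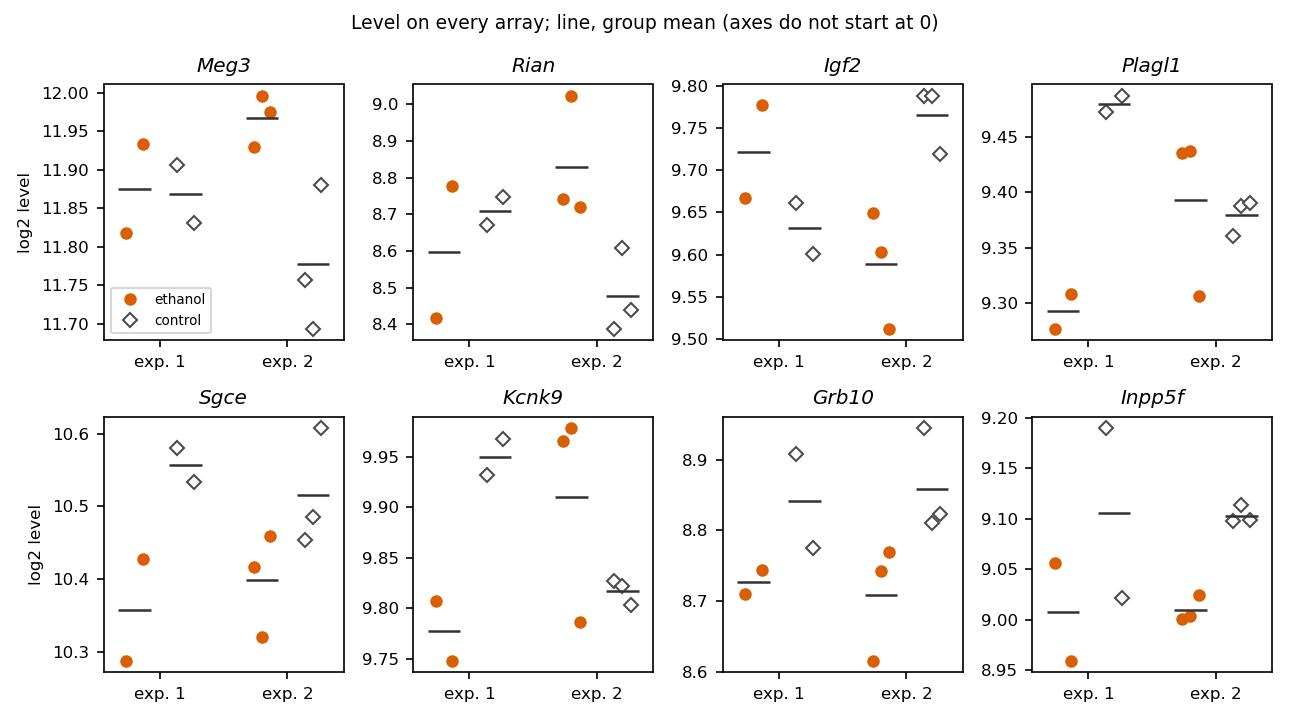
Level on every array (y axis, log2, not starting at 0) of the 8 imprinted genes with an unadjusted p under 0.05 in experiment 1, in experiment 2 or over both, with ethanol arrays (filled circles) left of control arrays (open diamonds) in each experiment and a line at each group mean. Grb10 was lower on every ethanol array than on every control array of the same experiment, Meg3, Rian and Igf2 were separated in experiment 2 in different directions, and Plagl1 and Kcnk9 were separated in experiment 1 with 1 of 3 ethanol arrays low in experiment 2. Levels of different experiments cannot be compared.

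The microRNA genes of imprinted loci were given by a list of 59, of which 45 were measured. A microRNA probe set on a whole-transcript array reads RNA from the gene, which may be the precursor or its host transcript, and the mature microRNA was not measured. In experiment 2, 44 of the 45 were higher in ethanol, and 24 of them at an unadjusted p under 0.05, where 3.78% of all probe sets were called higher. In experiment 1, 32 of the 45 were lower, 4 of them at that threshold, and 2 were higher at it, where 4.93% and 4.02% of all probe sets were called lower and higher. None passed the adjustment over all probe sets in either experiment.

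Of those 45, 40 lie between Dlk1 and Dio3, a subset taken after the values were seen. In experiment 2 the median difference of these 40 genes was 0.23, with 39 higher, 24 of them at an unadjusted p under 0.05 (60%), and 17 of 40 with groups that did not overlap, where 7.62% of all probe sets and 52 of the other 251 microRNA genes were so. Mir136 was the exception (-0.05). In experiment 1 the median was -0.09, with 31 of the 40 lower, and the same 31 genes were all higher in experiment 2. At an unadjusted p under 0.05, 4 were lower and 2 higher in experiment 1, where 4.93% and 4.02% of all probe sets were called. The groups did not overlap for 14 that were lower and 3 that were higher there, where 19.2% and 15.1% of all were so. Of the other 251 microRNA genes, 19 and 67 were so. The smallest adjusted p was 0.242 in experiment 2. Their transcripts may be processed from shared precursors, so the 40 genes are not separate observations of ethanol.

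By array, the median of the 40 genes relative to the control mean of the same experiment in experiment 2 was 0.22, 0.19 and 0.21 with ethanol, against -0.08, -0.07 and 0.13 in control. The ethanol arrays lay above all control arrays, and control array 3 stood apart from the other control arrays. In experiment 1 it was -0.07 and -0.10 on the ethanol arrays, against 0.01 and -0.01 on the control arrays. The other 251 microRNA genes on the array had a median of 0.08 in experiment 2, with 18.7% of them at an unadjusted p under 0.05, and 0.06 in experiment 1, with 12.7%. Over both experiments the 40 genes had a median of 0.10, with 6 of them (15%) higher at an unadjusted p under 0.05, and the other 251 a median of 0.08, with 20.7% at it, so over both the interval had no larger share than other microRNA genes. The part of that general difference of microRNA probe sets, and of the one of dim probe sets, in the values of the locus was not tested.

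The microRNAs printed here are those of the interval with the smallest p in experiment 2 (Mir539, Mir485 and Mir380), in experiment 1 (Mir376b) and over both experiments (Mir369, Mir299a and Mir431), and those that share a seed. All 40 genes had a mature sequence in the RefSeq table of GRCm38.p6 (76 mature sequences in all). Mir376b, Mir299a, Mir431, Mir379 and Mir411 each have a further mature sequence listed that is not printed. The capitals mark the seed, bases 2 to 8, which sets most of a microRNA's target choice:
miR-539-5p: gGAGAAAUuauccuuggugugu
miR-485-3p: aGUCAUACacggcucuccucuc
miR-380-5p: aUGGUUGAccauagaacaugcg
miR-380-3p: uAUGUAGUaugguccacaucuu
miR-369-5p: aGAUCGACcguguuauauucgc
miR-369-3p: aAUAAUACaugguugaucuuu
miR-299a-5p: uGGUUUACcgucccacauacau
miR-431-5p: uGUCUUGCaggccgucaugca
miR-379-3p: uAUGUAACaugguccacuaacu
miR-411-3p: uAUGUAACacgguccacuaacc
miR-376b-5p: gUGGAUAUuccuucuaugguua
miR-376c-5p: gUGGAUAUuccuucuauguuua

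Among the 76 mature sequences listed, only 2 seeds were shared by several genes of the interval. Some genes, such as Mir539 and Mir485, had a single mature sequence listed, so seeds of unlisted sequences were not compared. AUGUAAC is the seed of miR-379-3p and miR-411-3p, and UGGAUAU that of miR-376b-5p and miR-376c-5p. The differences of the genes that share a seed had the same sign in each experiment. Of all 40 genes, 31 were lower in experiment 1 and 39 higher in experiment 2, so a shared sign is not particular to a shared seed. Mir376b had a difference of -0.55 and Mir376c of -0.09 in experiment 1, and 0.24 and 0.15 in experiment 2. Mir379 and Mir411 had -0.15 and -0.04 in experiment 1, and 0.25 and 0.14 in experiment 2.

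Mir380 had the largest difference of the interval in experiment 2. Its levels there were 7.66, 7.92 and 8.08 on the ethanol arrays, against 6.999, 7.32 and 7.61 on the control arrays. They did not overlap, and in experiment 1 they were separated the other way, at 7.35 and 7.54 in ethanol and 7.64 and 7.86 in control. The difference was 0.58 ± 0.14 in experiment 2 (adjusted p = 0.298) and -0.31 ± 0.18 in experiment 1 (adjusted p = 0.641).

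Mir539 had the smallest p of the interval in experiment 2. Its levels were 8.29, 8.40 and 8.23 in ethanol and 7.83, 7.96 and 8.07 in control, all ethanol arrays above all control arrays. In experiment 1 they were 7.999 and 8.13 in ethanol and 8.21 and 8.18 in control, all ethanol arrays below. The differences were 0.36 ± 0.07 in experiment 2 (adjusted p = 0.242) and -0.13 ± 0.09 in experiment 1 (adjusted p = 0.705).

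Mir369 was higher in ethanol in both experiments. Its levels were 7.62 and 7.91 in ethanol and 7.32 and 7.46 in control in experiment 1, and 7.89, 7.87 and 7.39 in ethanol and 7.46, 7.36 and 7.51 in control in experiment 2. In experiment 2, ethanol array 3 lay among the control arrays. The difference over both was 0.31 ± 0.09 (1.24-fold, adjusted p = 0.306). Mir299a (0.17, adjusted p = 0.326), Mir345, which lies outside the interval (0.15, adjusted p = 0.354), and Mir431 (0.19, adjusted p = 0.362) had the next smallest p over both.

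For the difference between the experiments, 20 of the 40 genes had an unadjusted p under 0.05, all of them lower in experiment 1 than in experiment 2, where 3.33% of all probe sets were called in that direction. Of the other 251 microRNA genes, 9.56% were called in either direction. The smallest adjusted p among the 40 was 0.665. The opposite directions in the 2 experiments are thus a description and not a difference that passed the adjustment.

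**Figure D3:**
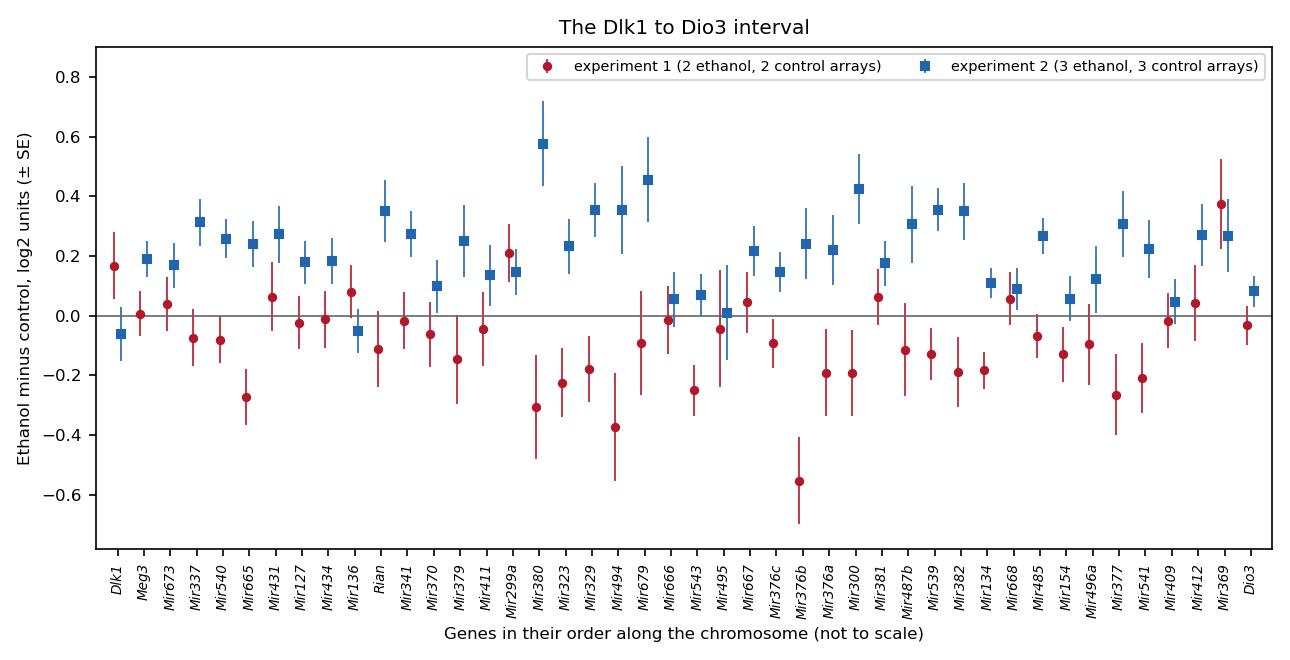
Difference between ethanol and control arrays (y axis, log2 units, bars of 1 SE) for Dlk1, Meg3, Rian, Dio3 and the 40 measured microRNA genes between Dlk1 and Dio3, in their order along chromosome 12 (x axis, not to scale), in experiment 1 (circles) and experiment 2 (squares). In experiment 2 the points lie above 0 from Meg3 to Dio3, Mir136 excepted, and in experiment 1 31 of the 40 microRNA genes lie below 0.

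Of the genes of the paternal copy, Dlk1 was higher in ethanol in experiment 1 and lower in experiment 2, and Dio3 and Rtl1 had the opposite signs. Dlk1 levels in experiment 1 were 8.88 and 8.59 in ethanol and 8.54 and 8.59 in control. In experiment 2 they were 8.50, 8.82 and 8.53 in ethanol and 8.65, 8.67 and 8.71 in control. Dlk1 was highest, in each experiment, on the ethanol array that was also highest in Gh, Prl and Cga (10.7 in experiment 1 and 11.9 in experiment 2). Ethanol array 2 of experiment 1 was also high in these hormone genes (9.08), but its Dlk1 level lay between those of the control arrays. Dlk1 is known to be transcribed in the anterior pituitary. The part of pituitary tissue in the Dlk1 values was not tested. The differences were 0.17 ± 0.11 in experiment 1 (adjusted p = 0.691) and -0.06 ± 0.09 in experiment 2 (adjusted p = 0.844).

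Dio3 was among the dimmest 25% of probe sets, with differences of -0.03 in experiment 1 and 0.08 in experiment 2. Rtl1, a retrotransposon-derived gene of the paternal copy that was on the list of further imprinted genes, had a difference of 0.15 in experiment 2 (adjusted p = 0.436) and -0.03 in experiment 1. Several microRNA genes of the maternal copy lie antisense to Rtl1, and how the arrays' values treat strand is not given in the sources used here, so signals of these transcripts cannot be told apart with certainty.

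Igf2 encodes a fetal growth factor that the adult brain makes mainly in choroid plexus and meninges. Its levels in experiment 2 were 9.65, 9.60 and 9.51 on the ethanol arrays, against 9.79, 9.79 and 9.72 on the control arrays. All ethanol arrays lay below all control arrays. In experiment 1 the levels were 9.67 and 9.78 in ethanol and 9.66 and 9.60 in control, and the ethanol arrays lay above. The difference was -0.18 ± 0.06 in experiment 2 (1.13-fold lower, adjusted p = 0.38) and 0.09 ± 0.07 in experiment 1 (adjusted p = 0.735). Experiment 1 minus experiment 2 gave 0.27 ± 0.09 (adjusted p = 0.678). Without ethanol array 2 of experiment 1 it was 0.21 and no longer under the unadjusted threshold.

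Markers of the tissues that make Igf2 were lower in ethanol in experiment 2 as well, though not they alone. All 11 measured choroid plexus markers of 12 listed were lower there, 7 of them at an unadjusted p under 0.05, where 6.19% of all probe sets were called lower, with a median of -0.27 and a mean list level of 7.87 to 8.02 on the ethanol arrays, against 8.12 to 8.24 on the control arrays. Of 12 meningeal markers, 11 were lower, with a median of -0.15 and a mean list level of 7.54 to 7.60 on the ethanol arrays, against 7.71 to 7.78 on the control arrays. In experiment 1 the mean level of the choroid plexus list was 8.01 to 8.09 on the ethanol arrays and 8.08 to 8.10 on the control arrays, and that of the meningeal list was 7.64 to 7.68 on the ethanol arrays and 7.62 to 7.70 on the control arrays. Of other marker lists in experiment 2, all 6 astrocyte markers were lower (median -0.11), and 4 of 6 microglia markers (median -0.15). Of 9 neuronal markers 6 were lower (median -0.02), whereas 9 of 11 hypothalamus markers were higher (median 0.04). These log2 levels have no true 0, so no marker can be called absent. The part of choroid plexus and meninges in the Igf2 difference was not tested.

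**Figure D4:**
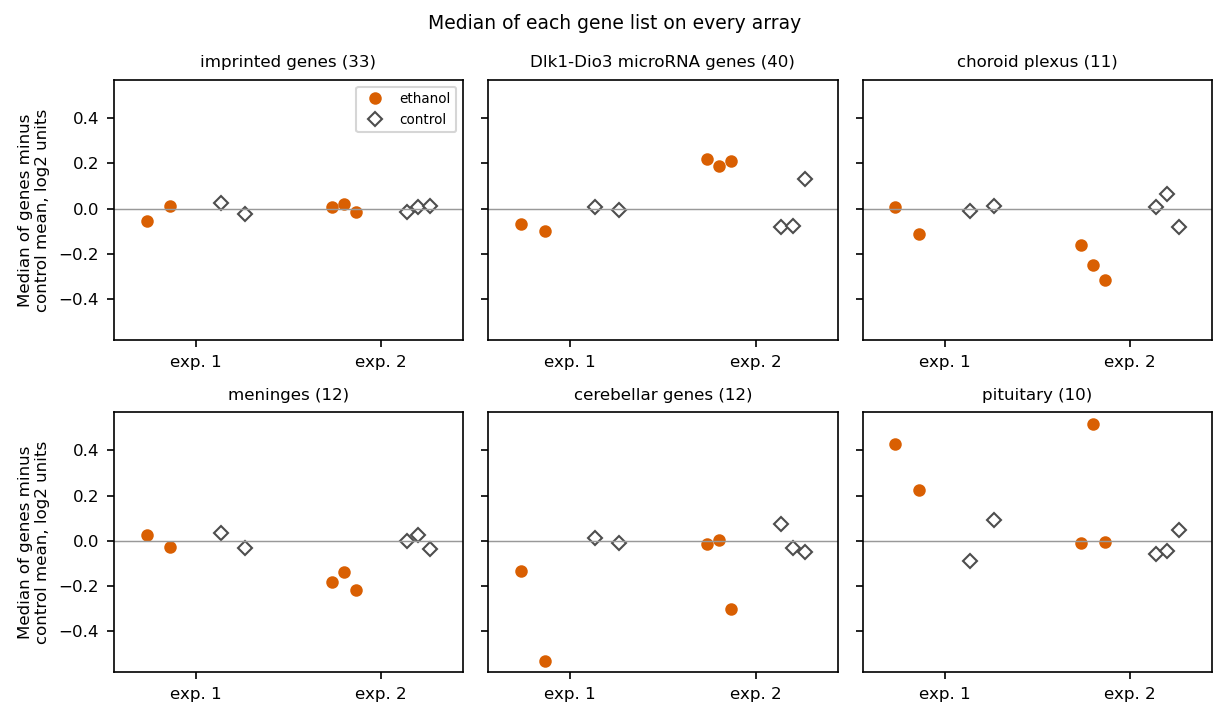
Median over the genes of each list of the level minus the control mean of the same experiment (y axis, log2 units), on each ethanol array (filled circles) and control array (open diamonds), for the imprinted genes, the microRNA genes between Dlk1 and Dio3, and markers of choroid plexus, meninges, cerebellar cells and pituitary. The imprinted genes stay within 0.06 of 0 on every array, whereas in experiment 2 the microRNA genes lie at 0.19 to 0.22 on the ethanol arrays and the choroid plexus markers at -0.32 to -0.16.

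Igf2r encodes the receptor that clears IGF2 and is maternally expressed in most mouse tissues, while in neurons both copies are transcribed. Airn is the long non-coding RNA of its paternal copy and overlaps it in antisense, so their signals are uncertain where strand is not kept. Igf2r levels were 8.53 and 8.50 in ethanol and 8.67 and 8.60 in control in experiment 1, and 8.60, 8.60 and 8.49 in ethanol and 8.62, 8.61 and 8.51 in control in experiment 2. The ethanol arrays were lower without overlap in experiment 1. The differences were -0.12 ± 0.07 (adjusted p = 0.652) in experiment 1 and -0.02 ± 0.06 (adjusted p = 0.934) in experiment 2.

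Airn levels were 8.99 and 8.80 in ethanol and 9.30 and 9.04 in control in experiment 1, and 9.32, 9.14 and 8.88 in ethanol and 8.94, 8.79 and 9.13 in control in experiment 2. Its differences were -0.28 ± 0.15 (adjusted p = 0.606) in experiment 1 and 0.17 ± 0.12 (adjusted p = 0.655) in experiment 2. Experiment 1 minus experiment 2 was -0.45 ± 0.19 (adjusted p = 0.745). The unadjusted p was under 0.05 in 11 of 19 alternatives. It was not without ethanol array 2 or control array 1 of experiment 1, nor without array 1 or 2 of either group in experiment 2, with a value of -0.31 without control array 1 of experiment 1.

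Among the 33 genes, Grb10 was the gene whose ethanol arrays lay below all control arrays in each experiment. Of all probe sets, 19.2% lay so in experiment 1 and 11.6% in experiment 2. Of the 5447 probe sets in the same brightness step as Grb10, 1664 lay so in experiment 1 and 938 in experiment 2. The share of all probe sets that lay so in both experiments was not counted. Grb10 encodes an adaptor that dampens insulin and IGF1 receptor signalling. In most tissues the maternal copy is active, and in mouse neurons the paternal copy, from a promoter of its own. Both annotated starts are shown because the probe set was not assigned to either of them. The 250 bases before each are on the minus strand of GRCm38.p6, chr11:12037421-12037670 and chr11:12027972-12028221, from RefSeq, with every CG in capitals:
Grb10, upstream start: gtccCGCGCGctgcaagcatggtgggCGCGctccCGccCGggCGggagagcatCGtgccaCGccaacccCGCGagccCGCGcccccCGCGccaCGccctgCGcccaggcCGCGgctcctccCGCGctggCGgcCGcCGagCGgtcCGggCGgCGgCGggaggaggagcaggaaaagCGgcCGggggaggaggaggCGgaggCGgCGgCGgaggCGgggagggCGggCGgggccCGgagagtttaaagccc
Grb10, downstream start: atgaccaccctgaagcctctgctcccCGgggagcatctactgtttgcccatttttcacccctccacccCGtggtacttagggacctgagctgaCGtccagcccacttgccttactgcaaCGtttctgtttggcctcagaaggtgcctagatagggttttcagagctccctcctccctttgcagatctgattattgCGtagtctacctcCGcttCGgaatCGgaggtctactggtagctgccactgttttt

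The upstream window holds 40 CG and the downstream one 8, and neither has a TGCCGC. Grb10 levels in experiment 1 were 8.71 and 8.74 on the ethanol arrays, against 8.91 and 8.77 on the control arrays. In experiment 2 they were 8.62, 8.74 and 8.77 on the ethanol arrays, against 8.94, 8.81 and 8.82 on the control arrays. In each experiment 1 control array (array 1) stood well above the others, and the gap between the groups is small next to it. The difference was -0.11 ± 0.08 in experiment 1 (adjusted p = 0.698), -0.15 ± 0.06 in experiment 2 (adjusted p = 0.467) and -0.14 ± 0.05 over both (1.10-fold lower, adjusted p = 0.332). The 95% interval over both ran from -0.24 to -0.03. With quantile normalization the value over both was -0.09 (adjusted p = 0.711), over 1.5 times smaller, and in experiment 2 it was -0.10 without ethanol array 1 and -0.11 without control array 1. None of these values had an unadjusted p under 0.05. In experiment 2 the difference was under that threshold in 11 of 16 alternatives.

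Sgce had the smallest p over both experiments among the imprinted genes. It encodes epsilon-sarcoglycan, a membrane protein whose human counterpart is mutated in myoclonus dystonia, and shares a paternally active promoter region with Peg10. Its levels in experiment 1 were 10.29 and 10.43 on the ethanol arrays, against 10.58 and 10.53 on the control arrays. Those of experiment 2 were 10.42, 10.32 and 10.46 in ethanol and 10.45, 10.48 and 10.61 in control. The groups were apart in experiment 1 and overlapped by 1 array in experiment 2. The difference was -0.20 ± 0.08 in experiment 1 (adjusted p = 0.485), -0.12 ± 0.06 in experiment 2 (adjusted p = 0.563) and -0.15 ± 0.05 over both (1.11-fold lower, adjusted p = 0.316), with a 95% interval from -0.26 to -0.04. The difference of experiment 1 had an unadjusted p under 0.05 in 8 of 14 alternatives. It was -0.13 without ethanol array 1 and -0.18 without control array 1. The difference over both had an unadjusted p under 0.05 in 19 of 19 alternatives.

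The neighbours of Sgce had smaller differences. Peg10, a retrotransposon-derived gene needed in the placenta, had 0.04 in experiment 1 and -0.01 in experiment 2. Asb4, a ubiquitin ligase subunit, had 0.04 and 0.01. Ppp1r9a, which encodes the actin-binding protein neurabin, had -0.05 and 0.06.

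Inpp5f encodes a phosphoinositide phosphatase, and in mouse brain a transcript that starts within the gene is paternally expressed. Its levels were 9.06 and 8.96 in ethanol and 9.19 and 9.02 in control in experiment 1, where the groups overlapped. Those of experiment 2 were 9.001, 9.004 and 9.02 in ethanol and 9.10, 9.11 and 9.10 in control, where the groups were apart and each was tight. The difference was -0.10 ± 0.07 in experiment 1, -0.09 ± 0.06 in experiment 2 and -0.10 ± 0.04 over both (adjusted p = 0.394). With quantile normalization it was -0.04 (adjusted p = 0.839), over 1.5 times smaller. The unadjusted p was under 0.05 in 9 of 19 alternatives, and it was not without ethanol array 2 or control array 1 of experiment 1, nor without any single array of experiment 2.

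Plagl1 and Kcnk9 were lower in ethanol in experiment 1 and had the opposite sign in experiment 2. Plagl1 encodes a zinc finger transcription factor that arrests the cell cycle and regulates other imprinted genes in mouse. Its levels were 9.28 and 9.31 in ethanol and 9.47 and 9.49 in control in experiment 1, and 9.44, 9.44 and 9.31 in ethanol and 9.36, 9.39 and 9.39 in control in experiment 2. The difference was -0.19 ± 0.06 in experiment 1 (1.14-fold lower, adjusted p = 0.438) and 0.01 ± 0.05 in experiment 2. The value of experiment 1 was -0.12 with quantile normalization, over 1.5 times smaller, and -0.17 without ethanol array 1, neither under the unadjusted threshold. Experiment 1 minus experiment 2 was -0.20 ± 0.08 (adjusted p = 0.745). Its unadjusted p was under 0.05 in 12 of 19 alternatives. It was not without ethanol array 1 or either control array of experiment 1, nor without ethanol array 1, ethanol array 2 or control array 1 of experiment 2.

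Kcnk9 encodes the two-pore potassium channel TASK3, maternally expressed in brain and abundant in cerebellar granule cells. Its levels were 9.81 and 9.75 in ethanol and 9.93 and 9.97 in control in experiment 1, and 9.97, 9.98 and 9.79 in ethanol and 9.83, 9.82 and 9.80 in control in experiment 2. Ethanol array 3 of experiment 2 lay low for Kcnk9 and for Plagl1. The difference was -0.17 ± 0.07 in experiment 1 (adjusted p = 0.528) and 0.09 ± 0.06 in experiment 2 (adjusted p = 0.622), and experiment 1 minus experiment 2 was -0.26 ± 0.09 (adjusted p = 0.696). The unadjusted p of experiment 1 was under 0.05 in 7 of 14 alternatives. The value ranged from -0.20 to -0.12 over these alternatives. It was -0.14 without ethanol array 2, -0.19 without control array 1 and -0.15 without control array 2.

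The cerebellar marker list had its low values on the same arrays. Its mean level in experiment 1 was 10.03 and 9.64 with ethanol, against 10.17 and 10.14 in control. In experiment 2 it was 10.06, 10.04 and 9.76 with ethanol, against 10.10, 10.01 and 10.01 in control. The levels did not follow the list on every array. In experiment 1 the list was lower on ethanol array 2, whereas Plagl1 was slightly lower on ethanol array 1. In experiment 2, Kcnk9 on ethanol arrays 1 and 2 lay above all control arrays, where the list lay within the control range. The part of a smaller cerebellar share in the Kcnk9 and Plagl1 values was not tested. Trappc9, a trafficking complex subunit whose gene neighbours Kcnk9, had -0.15 in experiment 1 (adjusted p = 0.601) and -0.04 in experiment 2.

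The other named growth and neuronal genes had no unadjusted p under 0.05. Cdkn1c, the maternally expressed inhibitor of cyclin-dependent kinases, had levels of 6.40 and 6.28 in ethanol and 6.54 and 6.39 in control in experiment 1. In experiment 2 it had 6.36, 6.29 and 6.46 in ethanol and 6.39, 6.42 and 6.51 in control. The groups overlapped in both, and the difference over both was -0.09 ± 0.05 (adjusted p = 0.467).

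Its neighbours on chromosome 7, like Cdkn1c itself, were in the dimmer part of the probe sets. Phlda2, which restrains placental growth, had 0.06 in experiment 1 and 0.09 in experiment 2. Slc22a18, a membrane transporter, had -0.02 and 0.15 (adjusted p = 0.514 in experiment 2), with ethanol arrays above all control arrays in experiment 2.

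Peg3, a paternally expressed zinc finger gene studied for its part in maternal behaviour and growth, had levels of 11.60 and 11.61 in ethanol and 11.68 and 11.51 in control in experiment 1. In experiment 2 it had 11.68, 11.64 and 11.61 in ethanol and 11.50, 11.61 and 11.54 in control, apart by the narrowest of margins. The difference was 0.01 ± 0.07 in experiment 1 and 0.09 ± 0.06 in experiment 2 (adjusted p = 0.602). Usp29, a ubiquitin protease gene that starts beside Peg3 in the other direction, had 0.11 and -0.05. Zim1, a maternally expressed zinc finger gene, had 0.01 and 0.13 (adjusted p = 0.537 in experiment 2).

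Ndn, from the region whose human counterpart is lost in Prader-Willi syndrome, encodes necdin, a protein of postmitotic neurons. Its levels were 13.02 and 13.03 in ethanol and 12.94 and 12.91 in control in experiment 1. In experiment 2 they were 13.01, 12.89 and 13.19 in ethanol and 13.06, 12.70 and 12.998 in control. The groups were apart in experiment 1 and overlapped in experiment 2, and the difference over both was 0.11 ± 0.07 (adjusted p = 0.534). Magel2, a related neuronal gene, had -0.02 in experiment 1 and 0.08 in experiment 2. Mkrn3, known in human as a brake on puberty, had 0.06 and -0.03.

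Nnat encodes neuronatin, a small membrane protein of developing neurons, and lies within an intron of Blcap. Its levels were 11.77 and 11.78 in ethanol and 11.75 and 11.71 in control in experiment 1. Those of experiment 2 were 11.70, 11.78 and 11.69 in ethanol and 11.88, 11.74 and 11.73 in control. The sign turned between the experiments, with differences of 0.05 ± 0.07 and -0.06 ± 0.06. Blcap had -0.08 and -0.03.

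The remaining genes had these differences in experiment 1 and experiment 2, in that order. Mest, a paternally expressed hydrolase-like gene, had 0.03 and 0.11 (adjusted p = 0.561 in experiment 2), with ethanol arrays above all control arrays in experiment 2, and Copg2, a coat protein gene that overlaps it, had -0.11 and -0.05. Impact, a regulator of translation in neurons, had 0.05 and -0.02. Rasgrf1, an exchange factor for Ras that acts in memory in mouse, had -0.02 and -0.11. Nap1l5, which resembles the nucleosome assembly proteins, had 0.01 and -0.06. Commd1, a copper and NF-kB regulator, had -0.01 and 0.13 (adjusted p = 0.537 in experiment 2), also apart in experiment 2.

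The precision of the arrays limits what these values can show. The 95% intervals of the 33 genes reached from -0.60 to 0.41 in experiment 1, from -0.30 to 0.58 in experiment 2 and from -0.26 to 0.38 over both. The median SE over all probe sets was 0.08, 0.07 and 0.05 in those comparisons. These bounds are the extremes over the 33 genes and not a limit of detection.

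Genes that keep imprints or act on methylated DNA were given by a list of 25, of which 24 were measured. The list holds DNA methyltransferases and zinc finger proteins with their partners. It also holds TET enzymes, which oxidise methylated cytosine and are not keepers of imprints. In experiment 1, 19 of the 24 were lower in ethanol and 4 of them (Tet3, Tet1, Arid4b and Zfp445) at an unadjusted p under 0.05, where 4.93% of all probe sets were called lower, with a median of -0.08. In experiment 2, 12 were higher and 12 lower, 1 of them (Zfp445, higher) at that threshold, where 3.78% of all were called higher, with a median of 0.00. Over both experiments 2 were lower at it, near the share of 7.68% of all probe sets. They were Trim28 (-0.10, adjusted p = 0.38), the corepressor that ZFP57 recruits, and Tet1 (-0.13, adjusted p = 0.402), which oxidises methylated cytosine. Smchd1 (-0.09, adjusted p = 0.429), a chromatin protein that silences imprinted clusters, and Ezh2 (-0.06, adjusted p = 0.557), the histone methyltransferase of Polycomb, came next. A dimmer probe set of Smchd1, not used for the list, had -0.16 (adjusted p = 0.306). Zfp57 itself had -0.07 in experiment 1 and -0.03 in experiment 2, and Dnmt1, the maintenance methyltransferase, -0.02 and -0.07.

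Zfp445, which binds methylated imprinting control regions together with ZFP57, took opposite signs, with -0.15 ± 0.06 in experiment 1 (adjusted p = 0.501) and 0.13 in experiment 2 (adjusted p = 0.419). Zfp445 and Tet3 also had an unadjusted p under 0.05 for the difference between the experiments (adjusted p = 0.665 for each).

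A list of 44 further imprinted genes had 41 measured. In experiment 1, 22 were higher and 19 lower, with 2 higher and 0 lower at an unadjusted p under 0.05, where 4.02% and 4.93% of all probe sets were called. In experiment 2, 16 were higher and 25 lower, with 2 higher and 3 lower at it, where 3.78% and 6.19% were called. Over both experiments 3 were higher and 7 lower at an unadjusted p under 0.05, where 4.72% and 7.68% of all probe sets were called, with a median of -0.02. Dcn, which encodes the matrix protein decorin and is also on the meningeal marker list, had -0.19 (adjusted p = 0.306). Pon3, a lactonase gene, had -0.20 (adjusted p = 0.315), Ampd3, an AMP deaminase gene, had -0.16 (adjusted p = 0.326), and Wt1, a zinc finger gene, had 0.15 (adjusted p = 0.331). None of the 41 passed the adjustment. Of 7 listed snoRNA genes of imprinted loci, 0 had a probe set with their symbol alone.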

How the data were processed

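The authors deposited log2 expression levels for 35556 probe sets on 10 arrays, which per the labels' protocols were Affymetrix whole-transcript arrays hybridised with cDNA of 200 ng total RNA. The submitters' processing notes name Partek 6.6, and the background correction, normalization, any batch step, strand handling and genome build were not given there or in the labels. In the deposited log2 values the mean of experiment 1 equalled that of experiment 2 for every probe set (to within 5.83e-05), so levels cannot be compared between experiments, whereas ethanol minus control within an experiment is not fixed by that step. Groups and replicate numbers came from the array titles.

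Symbols came from the platform annotation: 21789 probe sets carried 1 symbol and were tested, and 1621 carried several and were not named. limma 3.58.1 in R 4.3.3 was fitted to the whole table (lmFit, eBayes, two-sided). A mean for each of 4 groups gave the differences within each experiment and between experiments (6 residual degrees of freedom, prior 5.45). Terms for experiment and treatment gave the difference over both (7, prior 5.57). P-values were adjusted by Benjamini-Hochberg over all 21789 at 0.05, and the fit was tested on simulated data. A number of arrays this small limits the precision. Gene values are given on every array for genes with an unadjusted p under 0.05 within either experiment or over both, and whatever their p for Igf2, Dlk1, Meg3, Peg3, Ndn, Cdkn1c, Grb10, Nnat and Igf2r. Of other lists, up to 4 genes with the smallest p over both are named, and others named from them, among them Mir376b, Mir380, Mir539 and Tet3, were chosen after their values were seen. The imprinted genes and all lists were chosen with earlier results of these data known. Sequences are RefSeq's for GRCm38.p6. Alternatives were median centring, quantile normalization, all probe sets, filters on dim ones, array weights, a trended variance prior, an unmoderated model, each experiment alone, a replicate block and each array left out. Figures were drawn with matplotlib 3.10.9.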

Additional observations from a re-analysis of the deposited data

How the results depend on the processing

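All 277 alternatives run for 16 differences of single genes kept their sign. These 16 were taken for an unadjusted p under 0.05 in the same arrays, and the alternatives reuse those arrays. A kept sign was therefore likely beforehand and is no independent check. The unadjusted threshold was not kept in all of them, as given by gene above. Of 274 alternatives for counts and medians, 41 moved the value beyond its limit and 233 did not. The count of probe sets past adjusted p 0.05, 0 in each comparison, was 1 in experiment 1 with each experiment fitted alone and 2 in experiment 2 with array weights. With 1 array left out it ranged from 0 to 235 in experiment 1 (235 without ethanol array 1), 0 to 1 in experiment 2, 0 to 1 over both, and 0 to 94 for the difference between experiments (94 without that same array). Leaving out an array of experiment 1 leaves a lone array that is assumed to vary like the other groups.

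The number of the 33 imprinted genes at an unadjusted p under 0.05 was 1 with median centring and 1 with array weights in experiment 1 (3 as reported), where 9.19% and 5.30% of all probe sets were called. It was 8 with median centring and 7 with each experiment fitted alone in experiment 2 (4 as reported), where 10.7% and 13.1% were called, so there the share of the imprinted genes was above that of all probe sets. Their median difference was 0.00627 with median centring in experiment 1, 0.0346 with quantile normalization and 0.0246 with median centring in experiment 2, and 0.0339 with median centring over both. With 1 array left out the count ranged from 1 to 5, 3 to 6 and 2 to 7 and the median from -0.0540 to 0.0128, -0.0202 to 0.0195 and -0.00896 to 0.0197 in experiment 1, experiment 2 and over both. For the 40 microRNA genes, the count was 12 in experiment 2 with the unmoderated model (24 as reported). Over both (6 as reported) it was 10 with quantile normalization, 11 with median centring, 3 with probe sets above the median, 3 with all probe sets, 18 with array weights and 2 with the unmoderated model. With 1 array left out it ranged from 4 to 8, 14 to 26 (14 without control array 2 of experiment 2) and 2 to 11, and the median from -0.101 to -0.0684, 0.169 to 0.298 and 0.0503 to 0.133. The causes of these changes were not tested.

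Replicate numbers did not pair the arrays: deviations of same-numbered arrays correlated at -0.05 in experiment 1 and at 0.01, -0.15 and 0.23 in experiment 2. With the replicate number as a block, 0 probe sets passed in each comparison, and the imprinted genes at an unadjusted p under 0.05 numbered 3 in experiment 1, 3 in experiment 2 and 3 over both. A mean over several probe sets of a gene was not run, because each imprinted gene had 1.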
